A study of Drosophila melanogaster with 8 samples.

Results

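Maternal germline genes are genes whose RNA or protein is made in the female germ line and loaded into the egg. In the ovary of *Drosophila melanogaster*, nurse cells pass RNA and protein through ring canals into the oocyte, where RNA-binding proteins hold the messages in place and keep them silent until they are needed. The genes described here belong to that programme. zpg builds gap junctions between germ cells and their somatic neighbours, and dhd and fs(1)N act in the mature egg. exu and orb govern where messages go and when they are translated. osk and vas found the germ plasm at the posterior pole, nos patterns the abdomen and protects germ cells, and cup and me31B repress translation. The 10 members, vas, osk, nos, cup, orb, zpg, dhd, fs(1)N, exu and me31B, were taken as a list of oocyte and germline genes by their FlyBase annotation. All of their annotated transcripts in the deposited table were used, which came to 27 of 31089 transcripts and 10 of the 14292 genes those transcripts belong to.

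The libraries are long-read cDNA of total RNA in which the ends of transcripts of 1 gene, qtc, were enriched by amplification with its own primers. There are 8 groups with 1 library each: female eyes, male eyes, female heads, male heads, female salivary glands, male salivary glands, ovaries and testes. All were from the wild-type strain Oregon R, kept at 25 °C and sampled 5 to 7 days after hatching, with no transgene, mutation or treatment named in any group. Heads were shaken from frozen bodies and eyes were picked from frozen heads with tweezers, while testes, and by the labels also heads of males, were isolated in buffer; the sources used here do not say how ovaries and salivary glands were taken. No group has a second library, so no difference between 2 libraries has a replicate check, and each interval below is a 95% interval that covers counting error only, since reads of amplified cDNA that carry no molecular identifiers can repeat one molecule. Levels describe amplified libraries, and in a whole tissue fewer cells of a type and less RNA per cell cannot be told apart.

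The libraries held 88471 to 152222 estimated counts, so that 3 counts, the limit that a count of 0 allows, equal 19.8 to 33.9 counts per 1000000 (CPM). Markers fitted the labels for ovaries, where eggshell genes took 16.03% of the counts and 25 of 26 spermatogenesis genes were at 0, although digestive enzyme genes took 0.467%, and for testes, where spermatogenesis genes took 1.38% and eggshell genes 0.0584%. The female eye library stood apart: 11 of 24 eggshell genes were above 0 there and took 8.38% of its counts, against 0.0152% to 0.0283% in the other somatic libraries. Most of this list is 1 chorion gene, Cp15, with 11807.4 of the 12007.9 eggshell counts of female eyes and 23565.8 of the 24179.7 of ovaries; without it eggshell genes took 0.140% of female eyes, 0.407% of ovaries and 0.00163% to 0.00477% of the other somatic libraries. The same library had 16 of 21 digestive enzyme genes above 0 with 1.55% of its counts. This list took 0.0032% of male eyes, 0.0278% of female and 0.00667% of male heads, 0.141% of female and 0.401% of male salivary glands and 0.129% of testes. In the female eye library photoreceptor genes took 5.02%, against 18.06% in male eyes. The male eye library in turn had 1.14% of its counts in fat body genes, mostly the 1378.2 counts of Lsp2. Fat body genes took 0.0260% of female eyes, 0.0770% of female heads and 0.117% of male heads. Male eyes also had 7 of 7 larval glue and salivary genes above 0, with 61.7 counts. Spermatogenesis genes took 0.368% of the counts of female heads, nearly all of it the 457.9 counts of Mst98Ca. The salivary gland libraries held 7 of 7 larval glue and salivary genes above 0, at 2.38% of the counts in females and 1.98% in males, and 17.9% and 17.3% of fat body genes.

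The maternal germline genes were concentrated in ovaries and, next to them, in female eyes. Together they took 0.395% of the counts of ovaries (Wilson interval 0.365% to 0.428%), 0.138% of female eyes (0.120% to 0.158%) and 0.0499% of testes (0.0372% to 0.0669%). In the other 5 libraries they took 0.00112% to 0.00525%. Of the members, 8 of 10 were above 0 in ovaries, 7 in female eyes and 5 in testes, against 1 to 4 elsewhere. Of all genes, 31.2% were above 0 in ovaries, 36.0% in female eyes, 33.2% in testes and 25.7% to 35.4% elsewhere. At 10 counts or more stood 4 members in ovaries, 4 in female eyes, 2 in testes and none in the remaining libraries. Of all genes, 7.75% reached that count in ovaries, 6.93% in female eyes, 6.67% in testes and 5.85% to 7.75% in the remaining libraries. When each library's members are summed on the CPM scale and set to 100% over the 8 libraries, ovaries held 66.3%, female eyes 23.1% and testes 8.37%. The list did not behave as one group: dhd, fs(1)N and zpg were found mainly in ovaries and female eyes, exu in testes, ovaries and female eyes, orb mainly in testes, and vas, nos, osk, cup and me31B at or near 0 everywhere.

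**Figure D1:**
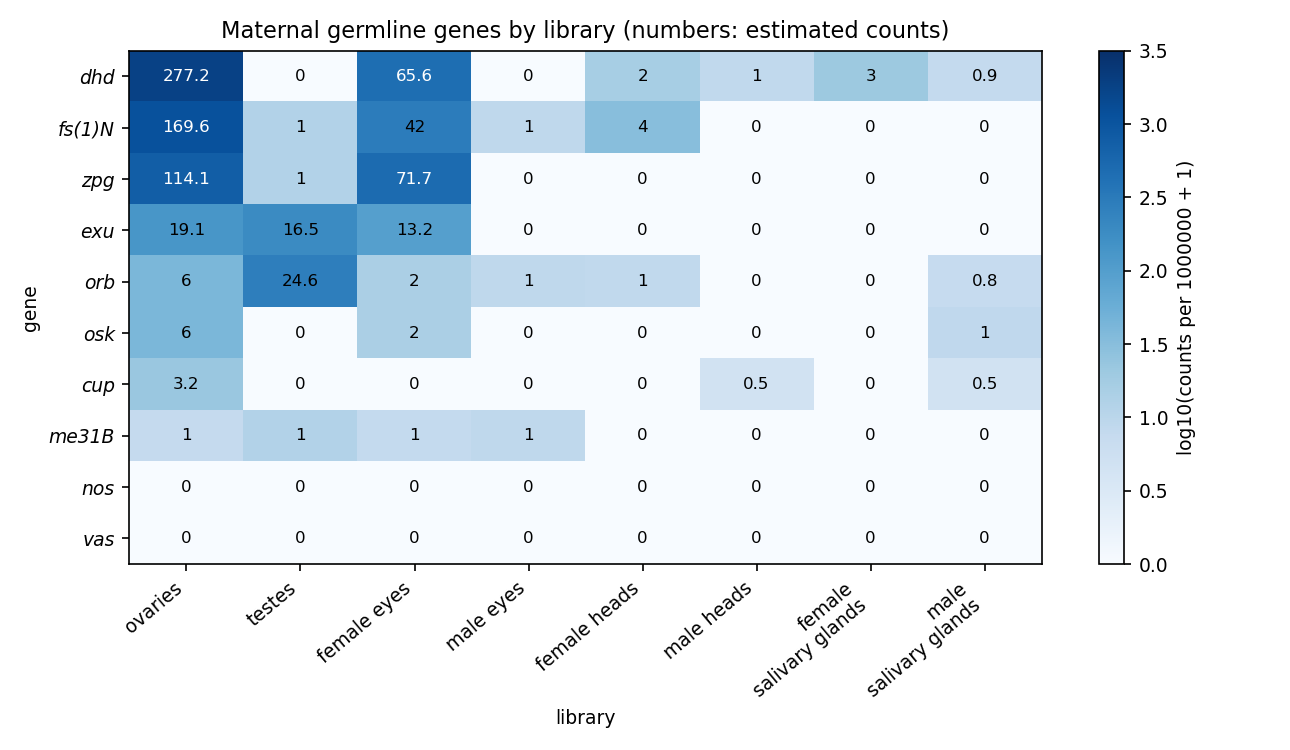
Estimated counts (numbers in the cells) and level (colour, log10 of CPM plus 1) of the 10 maternal germline genes (rows) in the 8 libraries (columns, 1 library each). The 4 genes in the top rows are dark in ovaries and female eyes, exu also in testes, orb is darkest in testes with 24.6 counts, and the bottom rows for nos and vas are at 0 throughout.

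zpg (FBgn0024177; chromosome 3L from 6604366 to 6606032, minus strand, BDGP6) encodes an innexin of the germ line, a gap junction protein that germ cells need to survive and differentiate. Its estimated counts were 114.1 in ovaries, 71.7 in female eyes and 1 in testes, and 0 in male eyes, both head libraries and both salivary gland libraries. The signal thus lay in ovaries and female eyes, and no somatic library other than female eyes held a count. On the CPM scale zpg was at 756.5 in ovaries (exact Poisson interval 624 to 908.7) and at 500.0 in female eyes (391 to 630). Of the summed CPM of zpg over the 8 libraries, 59.7% was in ovaries and 39.4% in female eyes.

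dhd (FBgn0011761; chromosome X from 5312171 to 5313125, plus strand) encodes the thioredoxin of the female germ line, which acts in the egg on the chromatin brought in by the sperm. Its counts were 277.2 in ovaries, 65.6 in female eyes, 3 in female salivary glands, 2 in female heads, 1 in male heads and 0.9 in male salivary glands, and it was at 0 in testes and male eyes. It was the member of highest count in ovaries, at 1838 CPM (1628 to 2067), and stood at 457.7 CPM (353.7 to 582.7) in female eyes. TrxT, the related thioredoxin gene of the male germ line that lies beside dhd, was at 0 in all 8 libraries.

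fs(1)N (FBgn0004650; chromosome X from 1322513 to 1329438, plus strand) encodes a protein secreted by the oocyte that is needed for a sound vitelline membrane and for patterning of the ends of the embryo. Its counts were 169.6 in ovaries, 42 in female eyes, 4 in female heads, and 1 each in male eyes and testes, with 0 in male heads and both salivary gland libraries. Ovaries were again highest, at 1124 CPM (961.4 to 1307), with female eyes at 293.1 CPM (211.2 to 396.2) and female heads at 29.97 CPM. Of its summed CPM, 76.7% was in ovaries and 19.98% in female eyes, close to the split of dhd, at 78.4% and 19.5%.

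exu (FBgn0000615; chromosome 2R from 20667427 to 20671083, minus strand) encodes a protein that carries bicoid mRNA to the anterior of the oocyte and is also needed in the male germ line. exu had 19.1 counts in ovaries, 13.2 in female eyes and 16.5 in testes, and 0 in the other 5 libraries. On the CPM scale the testis level was 186.9 (107.9 to 301.2), the ovary level 126.7 (76.4 to 197.6) and the female eye level 92.12 (49.32 to 156.9). These 3 intervals overlap, so no order between the 3 libraries was detectable at this depth. Of the summed CPM of exu, 46.1% was in testes, 31.2% in ovaries and 22.7% in female eyes.

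orb (FBgn0004882; chromosome 3R from 23260610 to 23280856, minus strand) encodes the germline CPEB protein, which binds messages at their 3′ ends and controls their polyadenylation and translation. Its counts were 24.6 in testes, 6 in ovaries, 2 in female eyes, 1 each in male eyes and female heads and 0.8 in male salivary glands, and 0 in male heads and female salivary glands. Testes were highest, at 277.8 CPM (179 to 411.5) against 39.85 (14.64 to 86.69) in ovaries, and held 78.6% of the summed CPM of orb.

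osk, nos and vas were scarce or missing. osk (FBgn0003015; chromosome 3R from 8935126 to 8938395, plus strand), whose protein assembles the germ plasm, had 6 counts in ovaries, 2 in female eyes and 1 in male salivary glands, and 0 elsewhere. In ovaries this came to 39.78 CPM (14.6 to 86.59). nos (FBgn0002962, named nanos in the annotation; chromosome 3R from 19157238 to 19160202, plus strand), the translational repressor that patterns the abdomen and protects germ cells, was at 0 in all 8 libraries. vas (FBgn0283442; chromosome 2L from 15061656 to 15074311, plus strand), the DEAD-box helicase that is the usual marker of germ cells, was at 0 in all 8 as well. For both, the limit of 3 counts allows a level of up to 19.9 CPM in ovaries and 33.9 CPM in testes. The exact Poisson intervals reach 24.5 and 41.7 CPM, so that absence of these messages was not shown.

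The general repressors were as scarce. cup (FBgn0000392; chromosome 2L from 6663664 to 6674780, plus strand), which blocks translation of osk by binding the cap-binding factor eIF4E, had 3.2 counts in ovaries and 0.5 each in male heads and male salivary glands. These counts are uncertain: the exons of cup-RB are identical to those of a transcript of CG34310, CG34310-RC, which received the same 3.2 and 0.5 counts. Likewise cup-RC has the exons of CG34310-RD, and in testes cup-RC was at 0 while CG34310-RD was at 10.2. me31B (FBgn0004419; chromosome 2L from 10239341 to 10242172, plus strand), a helicase of silenced RNA granules, had 1 count each in female eyes, male eyes, ovaries and testes and 0 in the other 4. No level of me31B above the limit of a count of 0 was measured in any library.

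Levels of different genes were compared per length, in deposited transcripts per 1000000 (TPM) summed over the transcripts of a gene. The number of long reads need not grow with transcript length, so the orders below hold for TPM only and can differ by count. In ovaries dhd was highest, at 1910 TPM (counting interval 1700 to 2150), followed by zpg at 358 TPM (295 to 430), fs(1)N at 105 TPM (89.5 to 122) and exu at 43.0 TPM (25.9 to 67.0). The intervals of these 4 do not overlap each other. Below exu came orb at 13.7 TPM (5.04 to 29.8), osk at 8.96 TPM (3.29 to 19.5) and cup at 3.29 TPM (0.715 to 9.37), and from exu downwards each interval overlaps that of its neighbour. fs(1)N had a higher count than zpg in ovaries, 169.6 against 114.1, but a lower level per length. Its transcript is 6581 bases long, against 772 to 952 bases for dhd and 1455 to 1539 for zpg. In female eyes dhd (615 TPM, 475 to 783) and zpg (301 TPM, 235 to 379) again led. There exu (39.0 TPM, 20.9 to 66.5) and fs(1)N (34.1 TPM, 24.6 to 46.1) did not differ in TPM beyond counting error. By count the order in female eyes was zpg at 71.7, dhd at 65.6, fs(1)N at 42 and exu at 13.2. In testes orb (64.1 TPM, 41.3 to 94.9) and exu (58.0 TPM, 33.5 to 93.5) did not differ beyond counting error either, and the next member, zpg, was at 6.94 TPM on 1 count.

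The first comparison asks how the members differ between the gonads of the sexes. A gene is called higher or lower here at a 2-fold or larger ratio of CPM with 10 counts or more in either library, and ratios against 0 are lower bounds computed over 3 counts. By that rule 3 members were higher in ovaries than in testes and 1 was lower, among the 5 that reached 10 counts. The same rule called 43.9% of 1660 genes higher and 39.3% lower. Most genes at this depth thus passed the rule, which does not require an interval that excludes equal levels. fs(1)N was 99.4-fold higher in ovaries (17.6 to 3950, 169.6 against 1 count), zpg 66.9-fold (11.8 to 2660, 114.1 against 1) and dhd at least 54.1-fold. orb was 6.97-fold higher in testes (2.79 to 20.8). For exu the ratio of ovaries to testes was 0.678 (0.332 to 1.4), which includes no difference. Genes with 10 counts in both gonads had a median log2 ratio of 0.20 over 401 genes, and TMM scaling, which resets it to 0.04, shifted every ratio by 0.16 and changed none of these calls. With female eyes in place of ovaries, 3 members were higher than in testes and 2 lower, where 39.6% of 1578 genes were called higher and 44.7% lower. The 2 lower were orb (19.9-fold, 4.96 to 174, as testes over female eyes) and exu (2.03-fold, 0.924 to 4.54), and the interval of exu includes no difference.

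exu was present in both gonads as different transcripts. exu-RB took all 19.1 exu counts of ovaries (Wilson interval of the share 83.3% to 100%) and all 13.2 of female eyes (77.5% to 100%). exu-RD took all 16.5 of testes (81.1% to 100%). The zero counts allow a share of up to 15.7% for exu-RD in ovaries, up to 22.7% for exu-RD in female eyes and up to 18.2% for exu-RB in testes. exu-RA and exu-RC were at 0 in every library. Both detected transcripts have the same coding exons, 1596 coding bases, and differ at both ends: exu-RB has 3 exons, 1988 bases and a first exon from 20670201 to 20670491, while exu-RD has 5 exons, 2631 bases and a first exon from 20670638 to 20670761. exu-RD adds a separate last exon from 20667427 to 20668282. The pair shares 1651 exon bases, with 337 found in exu-RB alone and 980 in exu-RD alone. Separate female and male germline transcripts of exu are part of what is known of the gene. exu-RD overlaps galla-1 on the opposite strand, a gene at 0 in testes.

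orb also differed in the transcript seen in each gonad. In testes orb-RD took 18.5 of 24.6 counts (75.2%, 55.5% to 88.0%) and orb-RB 6.1 (24.9%, 12.0% to 44.5%), and no other orb transcript was above 0. These 2 have the same 2739 coding bases and the same first exon, and orb-RB runs 993 bases further at its 3′ end. In ovaries all 6 counts went to orb-RE, which begins within the gene at 23267912, has 1677 coding bases and lacks 1083 of the coding bases of orb-RD. The single count of female heads was orb-RE too, that of male eyes was orb-RC, and the 2 counts of female eyes were orb-RA. orb-RE shares 1872 of its 1964 bases with orb-RD, while orb-RD has 1386 bases that orb-RE lacks, and the ovary assignment rests on 6 counts.

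**Figure D2:**
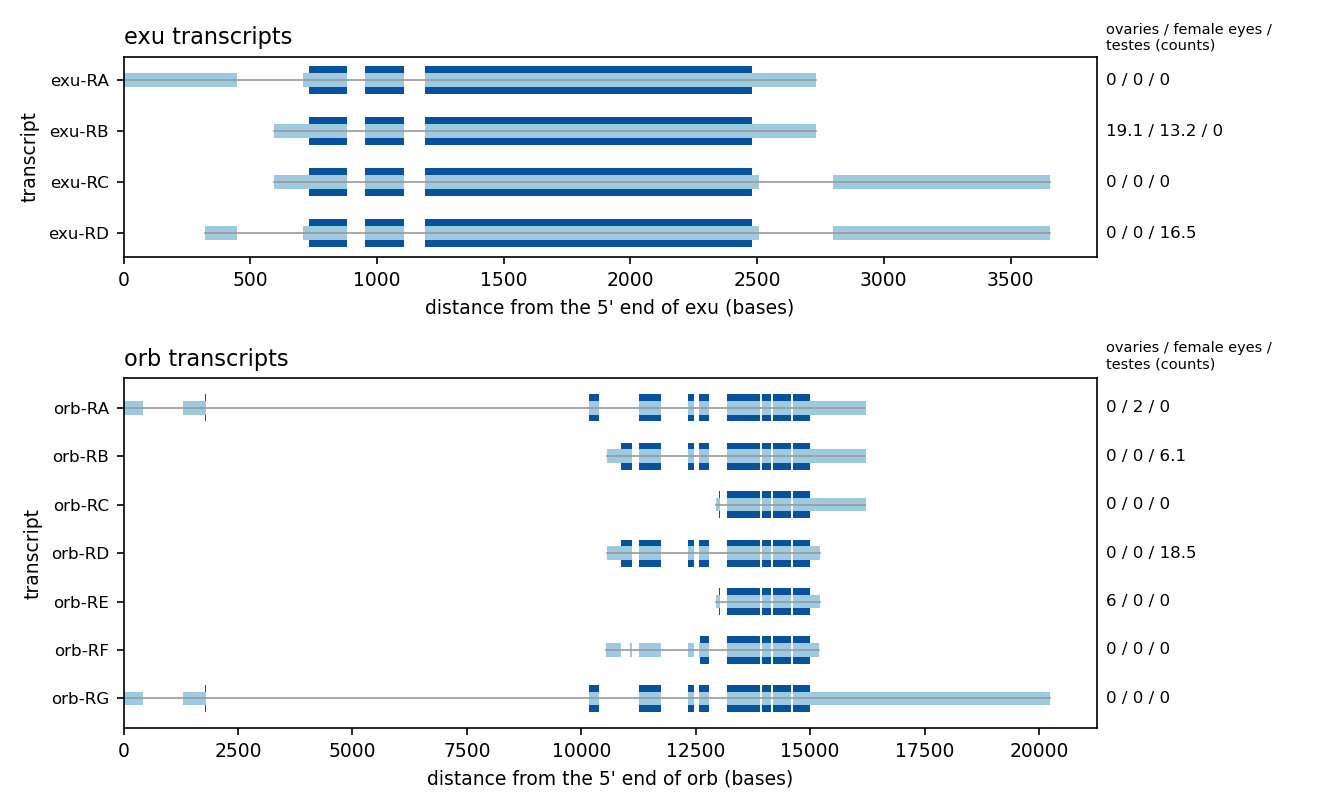
Annotated transcripts of exu (top) and orb (bottom) drawn 5′ to 3′ by distance in bases from the 5′ end of the gene, with exons in light blue, coding exons in dark blue and lines for introns, and the estimated counts in ovaries, female eyes and testes at the right. exu-RB carries 19.1 and 13.2 counts in ovaries and female eyes and exu-RD 16.5 in testes, and of the orb transcripts orb-RD and orb-RB were seen in testes alone.

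The transcripts of zpg and dhd differ by short ends. zpg-RB is zpg-RA with 84 further bases at the 3′ end and the same 1101 coding bases. zpg-RA took 54.7 counts in ovaries (48.0% of the gene, 39.0% to 57.1%) and 55.2 in female eyes (77.0%, 66.0% to 85.2%). The number of zpg-RA counts was thus nearly the same in both libraries, while zpg-RB had 59.4 counts in ovaries and 16.5 in female eyes, and the share intervals do not overlap. dhd-RB starts 183 bases upstream of dhd-RA and has the same single exon structure and the same 321 coding bases. dhd-RA took 192.8 counts in ovaries (69.6%, 63.9% to 74.7%) and 53.5 in female eyes (81.6%, 70.5% to 89.1%), and here the intervals overlap.

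**Figure D3:**
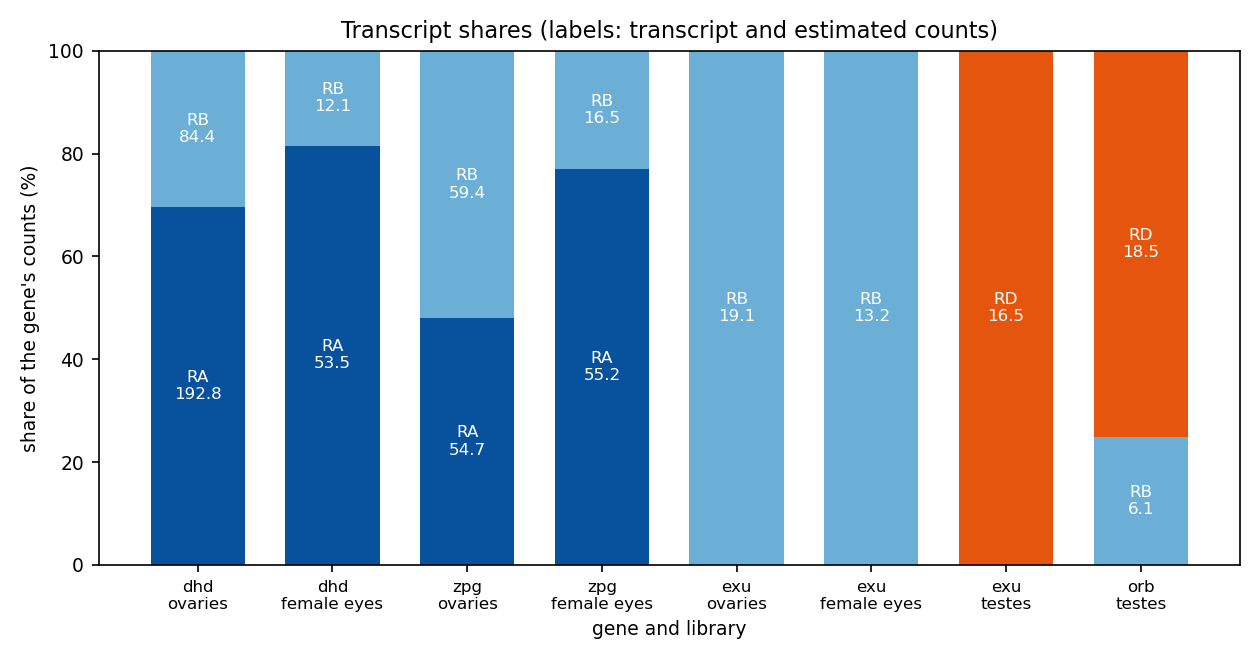
Share of each gene's estimated counts (percent, stacked to 100) by transcript, for the genes and libraries with 10 counts or more and more than 1 annotated transcript. The bars for exu hold 1 transcript each, exu-RB in ovaries and female eyes and exu-RD in testes, and zpg-RA is 48.0% in ovaries against 77.0% in female eyes.

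For the remaining members the transcript data are thin. fs(1)N has 1 transcript. The 2 osk transcripts have identical exons and differ only in the annotated start of coding, 1818 against 1404 coding bases, and got 3 counts each in ovaries, an even split that carries no information on either form. me31B-RB received the single counts of both eye libraries and of ovaries, and me31B-RA that of testes. zpg, dhd, fs(1)N, orb and me31B share no exon base with another gene, whereas vas shares exons with solo, which was also at 0 throughout. Genes on the opposite strand overlap osk, nos and cup, and osk also shares exon bases with lncRNA:osk on its own strand. For cup that gene is cort, which shares exon bases with both cup transcripts and had 39.7 counts in ovaries, against 3.2 for cup.

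The second comparison asks whether the members differ between female and male eyes. All 4 members that reached 10 counts were higher in the female library, against 37.0% of 1272 genes called higher and 28.5% called lower by the same rule. zpg had 71.7 counts against 0, at least 20.9-fold, and dhd 65.6 against 0, at least 19.2-fold. fs(1)N had 42 against 1 and was 36.8-fold higher (6.26 to 1490), and exu had 13.2 against 0, at least 3.86-fold. The other 6 members had 0 to 2 counts in each eye library. Eggshell genes, at 8.38% against 0.025% of the counts, and digestive enzyme genes, at 1.55% against 0.0032%, were higher in the same library, and their part in the result was not tested. Of 26 spermatogenesis genes, 3 were above 0 in female eyes, at 1 count each.

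No member reached 10 counts in heads or salivary glands, so none was called between the sexes there, where 16.1% and 14.3% of the genes tested were called higher in females. fs(1)N had 4 counts in female and 0 in male heads, and dhd 2 and 1. In salivary glands dhd had 3 counts in females and 0.9 in males. These counts are at or near the limit of a count of 0 and give no direction.

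Female eyes were also set against female heads. The same 4 members were higher in the eye library, against 29.0% of 1415 genes: zpg at least 22.2-fold, dhd 30.4-fold (8.11 to 254), fs(1)N 9.78-fold (3.55 to 37.6) and exu at least 4.10-fold. The comparisons of female eyes share 1 library and are not independent of each other.

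A sex difference shared by eyes, heads and salivary glands was also sought. With tissue and sex as terms, edgeR's quasi-likelihood test called 0.0% of 1316 genes at an adjusted p under 0.05 (34 at an unadjusted p under 0.05; DESeq2 called 2). None of the 10 members passed the filter on low counts, so none was tested there. Without a filter, the log2 difference of females minus males was 7.25 ± 1.92 (SE) for zpg (edgeR adjusted p = 0.113), 4.86 ± 1.55 for fs(1)N (adjusted p = 0.677), 3.74 ± 1.28 for dhd (adjusted p = 0.999) and 4.81 ± 2.26 for exu (adjusted p = 0.999). Leaving out another library let zpg, dhd and fs(1)N through the filter, but only by their counts in female eyes, so these values describe that library and support no difference between the sexes. The log2 difference of zpg was then 7.92 and 7.85 without female or male salivary glands and 7.65 and 7.63 without female or male heads. That of dhd was 5 and 4.97, and 4.62 and 4.61, in the same order. That of fs(1)N was 5.08 and 5.08, and 4.37 and 4.38. Without male eyes the tissue term takes up the female eye library, so that fit cannot use its counts for a sex difference. Without female eyes none of the 3 was tested.

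The third comparison sets ovaries beside female eyes, the 2 libraries with the highest summed share of the members. Of the 4 members at 10 counts, 2 were at least 2-fold higher in ovaries, against 42.9% of 1444 genes. dhd was 4.02-fold higher (3.06 to 5.34) and fs(1)N 3.84-fold (2.72 to 5.51), while the ratio was 1.51 for zpg (1.12 to 2.06) and 1.38 for exu (0.647 to 3.01). These ratios depend on the scaling: 654 genes with 10 counts in both libraries had a median log2 ratio of 0.52, which TMM resets to -0.08. Under TMM dhd was 2.65-fold higher (2.02 to 3.53) and fs(1)N 2.53-fold (1.80 to 3.64), while the ratio was 0.999 for zpg (0.737 to 1.36) and 0.908 for exu (0.427 to 1.99), so no direction is given for zpg or exu. Under both scalings the intervals of dhd and fs(1)N lie above that of zpg, so the members were not in one ratio between the 2 libraries. Of 12 eggshell genes at 10 counts, 9 were at least 2-fold higher in ovaries and 0 lower on library totals. The eggshell count was not repeated under TMM, which lowers every such ratio by 0.60 on the log2 scale. Among the 12 the ratio of CPM was 1.90 for Cp15 (1.86 to 1.94), 2.21 for Cp38 (1.74 to 2.82), 1.10 for Vm26Ab (0.774 to 1.57) and 28.8 for Vm34Ca (7.91 to 223). The yolk protein genes went the other way, with ratios of CPM of 0.625 for Yp2, 0.212 for Yp1 and 0.0110 for Yp3. The photoreceptor list took 0.0115% of ovaries against 5.02% of female eyes.

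**Figure D4:**
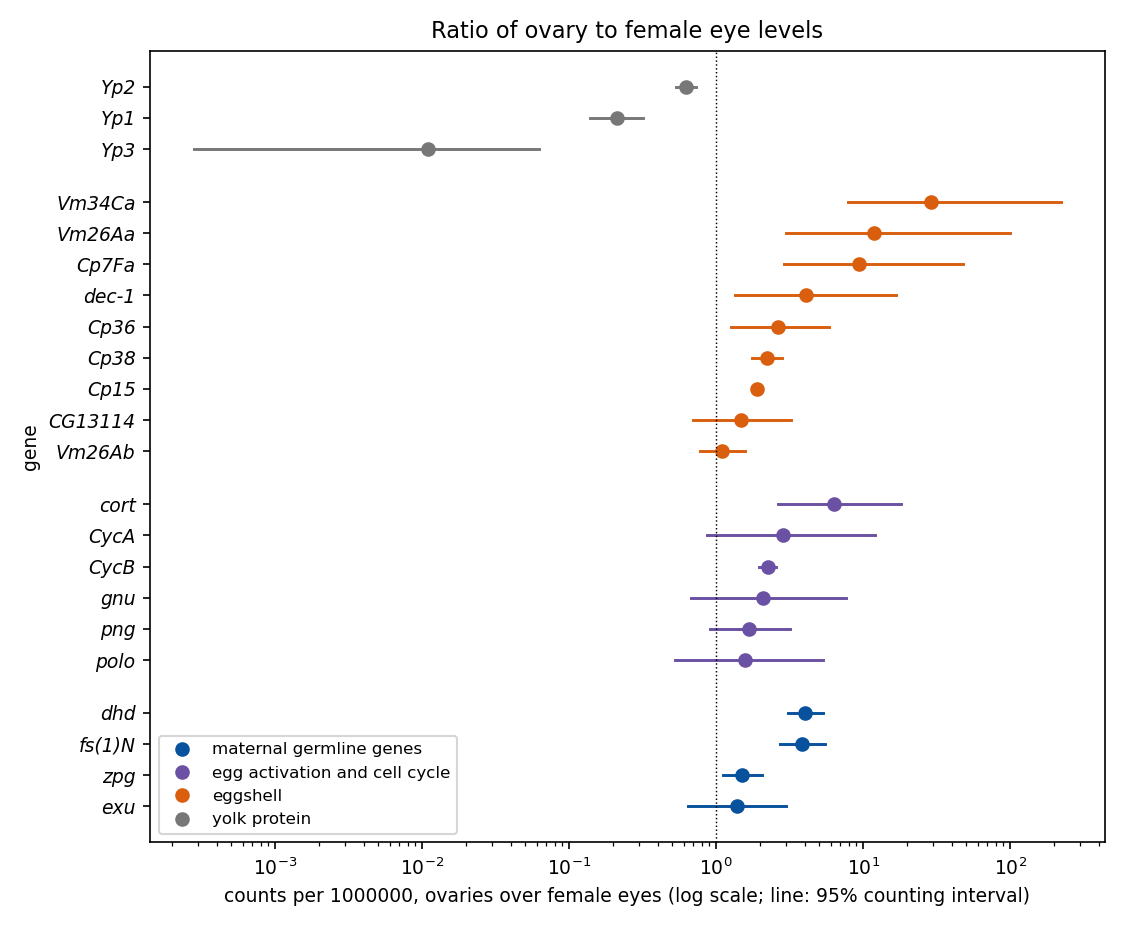
Ratio of ovaries to female eyes in CPM (log axis) for genes with 10 counts or more in either library and a count above 0 in both, by gene list, with the 95% counting interval as a line and a dotted line at equal levels. Genes at 0 in female eyes, such as Cp7Fc with 35.8 counts in ovaries, are not drawn. dhd and fs(1)N sit at 4.02 and 3.84, zpg and exu at 1.51 and 1.38, and the eggshell genes drawn spread from 1.10 to 28.8. TMM scaling moves every point to the left by 0.60 on the log2 scale and puts zpg at 0.999 and exu at 0.908.

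Against the other female tissues the ovary level was high for dhd, fs(1)N, zpg and exu. Relative to female heads, where 42.2% of 1623 genes were called higher in ovaries, dhd was 122-fold higher (33.6 to 1000), fs(1)N 37.5-fold (14.4 to 139), zpg at least 33.7-fold and exu at least 5.64-fold. Relative to female salivary glands, where 51.5% of 1455 genes were called, dhd was 92.8-fold higher (31.4 to 453), fs(1)N at least 56.7-fold, zpg at least 38.2-fold and exu at least 6.39-fold. In males, orb and exu were the 2 members higher in testes than in each somatic tissue. orb was 34.9-fold higher than in male eyes (5.70 to 1430; 49.6% of 1519 genes called), at least 12.5-fold higher than in male heads (39.8% of 1657) and 43.4-fold higher than in male salivary glands (6.33 to 3140; 48.2% of 1420). exu was higher by at least 7.82-fold, at least 8.42-fold and at least 8.25-fold in the same order.

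Other genes of the maternal programme were counted by list, each beside the shares of all genes given above. Of 11 egg activation and maternal cell cycle genes, 6 reached 10 counts in ovaries or testes, and 6 of 6 were higher in ovaries. CycB, the mitotic cyclin B stored in the egg, had 748.7 counts in ovaries and 121.1 in testes, a ratio of 3.62 (2.99 to 4.43). cort, a female meiosis activator of the anaphase-promoting complex, had 39.7 against 0 (at least 7.76-fold), and png, the kinase of egg activation, 31.8 against 0 (at least 6.22-fold). CycA (3.52-fold, 0.783 to 32.4) and polo (5.86-fold, 0.834 to 254) rest on 12 and 10 counts in ovaries, and their intervals include no difference.

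Of 21 other germ plasm and localisation genes, 5 reached 10 counts in a gonad, 2 were higher in ovaries and 1 was lower. pgc, which silences transcription in germ cells, had 11 counts in ovaries against 0 in testes (at least 2.15-fold), and swa, which acts on bicoid mRNA, had 12.2 against 0 (at least 2.38-fold). bru1, a translational repressor of osk, was 2.09-fold lower in ovaries (0.786 to 5.69, as testes over ovaries), an interval that includes no difference. bcd, which encodes the anterior determinant, and fs(1)K10 were at 0 in all libraries. Of 14 stem cell and piRNA genes, 2 reached 10 counts: aub, a Piwi protein, had 15 counts in ovaries against 0 (at least 2.93-fold), and squ was 2.42-fold lower in ovaries (1.17 to 5.15, as testes over ovaries). Of 6 nurse cell genes only hts, which builds ring canals and the fusome, reached 10 counts, and its ratio of ovaries to testes was 1.38 (0.549 to 3.88).

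In eyes the same lists gave 2 of 11, 4 of 21, 0 of 14 and 1 of 6 genes at 10 counts. CycB had 317.7 counts in female and 0 in male eyes (at least 92.8-fold) and png 18 and 0 (at least 5.26-fold). Of the germ plasm list, bru1 (14-fold, 2.17 to 587), smg, the repressor of nos (5.85-fold, 1.33 to 53.3), and tral (3.30-fold, 1.05 to 13.6) were higher in female eyes, and stau, which localises osk and bcd, was lower (2.65-fold, 1.04 to 7.59, as male over female). kel, a ring canal protein that is at 0 in both gonads here, was 2.19-fold higher in female eyes (1.15 to 4.41). In the edgeR model over the somatic tissues, CycB (log2 difference 4.00 ± 2.93 SE) and stau (-1.04 ± 0.643) both had an adjusted p of 0.961, and egl and kel adjusted p-values of 0.995 and 0.989. Leaving out 1 library leaves the other library of its tissue to the tissue term, so each such fit rests on the remaining 2 tissues. Without female or male salivary glands, where CycB had 3 and 21.9 counts, the CycB difference was 10.20 and 10.14. It was 2.25 without female heads and 2.25 without male heads, 0.36 without female eyes and 0.30 without male eyes. The size thus depends on which tissue is left out, and no sex difference shared by the tissues is drawn from these fits.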

How the data were processed

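The authors deposited estimated counts for each transcript, often fractional (39.7% to 57.3% of nonzero values), and TPM, corrected for length. A deposited table of whole-number read counts per library gives 90780 to 156627 reads after the authors' filter. Per the submitters' processing notes, the tools were minimap2, Salmon and edgeR and the build BDGP6, with no version or role; the sources used here do not state whether strand was used. Transcripts were joined to genes with the BDGP6 annotation, release 115; 31048 of 31089 matched, and the other 41, which held 0.0938% to 0.535% of a library, were left out. Transcripts that share exons are split by estimation. No column was left unmapped.

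Counts were summed per gene and divided by the matched total (CPM) in Python 3.11.15 with SciPy 1.17.1. Ratios have exact (Clopper-Pearson) intervals from both counts (fractional counts taken as they are), levels an exact Poisson interval and shares a Wilson interval. edgeR 4.0.16 in R 4.3.3 (TMM, filterByExpr at 10, robust quasi-likelihood, tissue plus sex) used rounded counts of the 6 somatic libraries, with Benjamini-Hochberg adjustment. DESeq2 1.42.0 was an alternative. The edgeR test was also run on simulated counts with the same sex difference in every tissue, so that run cannot show how it handles differences between tissues. Labels name no separate cultures, so the edgeR p-values measure the spread between tissues. Named genes are all members, up to 5 genes per list past the fold in a comparison, and the 5 genes most like the members. The members and lists were chosen with earlier results of these data known. Some eggshell and yolk protein genes are named beyond that rule, with their values seen.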

Additional observations from a re-analysis of the deposited data

Results flagged for a closer look

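CycB, which is no member but is counted among the maternal cell cycle genes, went in opposite directions between the sexes in different tissues. It had 317.7 counts in female and 0 in male eyes and 19.9 in female and 0 in male heads, but 3 in female and 21.9 in male salivary glands. Each value is 1 library, and the difference between tissues was not tested.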

How the results depend on the processing

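The number of members higher in ovaries than in testes was 3 under a 4-fold threshold, minimums of 5 and 20 counts, TMM scaling, TPM, a total without rRNA-named genes, qtc and eggshell genes, and with female eyes in place of ovaries (2 lower in that case, against 1). The number higher in female than in male eyes was 3 or 4, exu being lost at 4-fold, at 20 counts and in TPM; in heads and in salivary glands, comparisons added after seeing the data, it was 0 and 0. Over all genes, 729 of 1660 were higher in ovaries here and 411 of 1660 at 4-fold. At minimums of 5 and 20 counts they were 870 of 2681 and 464 of 1014. In female eyes 471 of 1272 were higher here and 248 of 1272 at 4-fold. At 5 and 20 counts these were 722 of 2144 and 289 of 738. TMM, TPM and the reduced total gave 673, 574 and 775 of 1660 in ovaries. In female eyes they gave 479, 366 and 507 of 1272. The edgeR model of somatic sex differences called 0 genes with library totals and without the rRNA-named, qtc and eggshell genes. It called 9 with no filter, 1 at a minimum count of 5, 2 with DESeq2, and 6 to 33 when a library was left out. More genes passed the filter with a library left out, and the cause of the larger number called was not tested. Of the 33 member levels above 0, 30 stayed within their counting interval under TMM; the 3 others were zpg, dhd and fs(1)N in ovaries, at 573.1, 1392 and 851.7 CPM. In TPM, which depends on length, 20 did. Without transcripts that overlap another gene 7 fell to 0: exu in testes, and osk and cup wherever they were seen. Members higher in ovaries than in female eyes were 2 under TMM and under the reduced total, both added after seeing the data. Of the 1444 genes tested, 410 and 519 were higher in these settings, against 619. Of the 10 leading transcripts, 10 still led by TPM. Of the 5 genes most like the members, 1 was kept by Pearson correlation and 4 at a minimum of 100 counts. No paired analysis was possible because each group has 1 library and the labels give no replicate numbers, other than by tissue, which the edgeR model has as a term. Members under 10 counts cannot be ordered at this depth.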

Other observations

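Genes were also ranked by how far their distribution over the 8 libraries, in CPM, overlaps that of the summed members, which is led by dhd, fs(1)N and zpg. Among 1546 genes with 50 counts or more, the highest overlap was 95.3%, for pav, a kinesin of the dividing cell's midzone. It had 86.5 counts in ovaries, 30.1 in female eyes, 6.3 in testes and 0 to 4 in the others. Next came Cp38, a chorion gene, at 91.9%, with 232.2 counts in ovaries, 99.9 in female eyes and 2 in testes. CG12909 followed at 90.6%, His2Av, a histone variant, at 90.2%, and CG30183 at 89.5%. His2Av had 153.4 counts in ovaries, 57.7 in female eyes and 11.7 in female heads. Of the genes named for eggs, CycB overlapped by 88.9%, Cp15 by 88.8%, png by 85.8% and cort by 80.0%. These are descriptions over 8 libraries that share depth and enrichment, and Pearson correlation of log2(CPM + 10) put mei-38, CG12909, CG7443, Hsp26 and CG10418 first.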
